A study of Mus musculus with 16 samples.

Results

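BMP response genes are genes whose transcription is known to go up when cells receive bone morphogenetic protein (BMP) signals. The 9 described here, Id1, Id2, Id3, Id4, Msx1, Msx2, Atoh8, Smad6 and Smad7, were taken by name from the 35976 genes of a count table of mouse neural tube organoids. Of these, 8 passed the filter on low counts, which kept 13891 genes of the table. Id4, with 104 counts over all libraries, did not pass and did not enter the main edgeR fit. It was tested only in ratios and in alternative runs that kept it.

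RNA was measured on day 4 in 16 libraries made by BRB-seq, which barcodes bulk RNA samples at the 3′ end so that they can be sequenced in 1 pool. The organoids came from R1, a mouse embryonic stem cell line, with the genotype FOXA2-Venus (Venus is a yellow fluorescent protein), and all of them had retinoic acid for 18 hours. The groups, called gates here, are 4 levels of FOXA2 expression (negative, low, medium, high), and each holds 4 libraries. FOXA2 is a transcription factor of the floor plate, which lines the ventral midline, and also of notochord and endoderm. All cells carry 1 genotype of 1 line, the gates differ in FOXA2 level and not in a treatment, and the numbers of the libraries are not said to stand for separate cultures. What the p-values weigh is thus the scatter among these libraries, and part of it may be technical.

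BMP ligands bind pairs of receptor kinases, which phosphorylate SMAD1, SMAD5 and SMAD9, and these enter the nucleus with SMAD4 to bind DNA near target genes. Id genes and the inhibitory SMADs are among the most direct of these targets, so their RNA is often read as a sign of BMP signalling, although each also answers to other inputs. In the neural tube, BMPs are known from the roof plate and the overlying ectoderm as dorsalizing signals, while the floor plate forms at the opposite pole.

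The stretches before the transcription starts of Smad6 and Id2 are shown because they hold letters that SMAD proteins are known to bind, and those of Msx1 and Atoh8 because these genes were called higher against the negative gate and their windows held neither word. RefSeq's promoter table (GRCm38.p6) had an entry for 7 of the 9 genes, and windows of 260 bases were read, 250 before the start and 10 after it. Capitals mark GTCTAGAC, the palindrome bound by SMAD3 and SMAD4, or GGCGCC, a GC-rich word bound by BMP-type SMADs. Sequences run 5′ to 3′ on the strand of the gene, which is the minus strand for all 4.
Smad6: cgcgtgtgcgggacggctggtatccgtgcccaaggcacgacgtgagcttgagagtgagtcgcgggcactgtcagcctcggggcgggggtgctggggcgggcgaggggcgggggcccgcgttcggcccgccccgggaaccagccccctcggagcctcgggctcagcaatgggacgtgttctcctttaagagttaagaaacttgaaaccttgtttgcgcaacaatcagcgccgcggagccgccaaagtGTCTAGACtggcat
Id2: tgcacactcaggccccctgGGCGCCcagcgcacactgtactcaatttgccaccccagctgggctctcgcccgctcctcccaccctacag
Msx1: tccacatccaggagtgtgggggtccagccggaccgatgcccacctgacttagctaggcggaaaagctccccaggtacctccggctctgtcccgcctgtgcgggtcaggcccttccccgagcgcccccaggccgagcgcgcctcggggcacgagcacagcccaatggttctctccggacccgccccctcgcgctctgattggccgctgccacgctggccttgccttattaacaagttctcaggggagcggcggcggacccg
Atoh8: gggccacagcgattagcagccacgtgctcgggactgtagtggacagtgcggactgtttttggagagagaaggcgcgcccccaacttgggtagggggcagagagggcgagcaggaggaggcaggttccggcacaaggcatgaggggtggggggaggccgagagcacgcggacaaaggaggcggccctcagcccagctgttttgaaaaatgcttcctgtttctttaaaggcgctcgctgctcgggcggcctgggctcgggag
The Smad6 window is chr9:64022050-64022309, and its GTCTAGAC begins 4 bases before the start and so spans it. The Id2 stretch, chr12:25096254-25096342, is the 89 bases of the window that lie outside the exons of GENCODE M21, within an intron of a longer Id2 transcript there, and its GGCGCC begins 231 bases before the start. The Msx1 window is chr5:37824576-37824835 and the Atoh8 window chr6:72235568-72235827. GGCGCC was also in the window of Id4, 148 bases before the start, and neither word was in those of Id3 and Msx2. Among 32851 RefSeq promoters of the same length, 58 (0.177%) held GTCTAGAC and 3272 (9.96%) held GGCGCC. Both words are their own reverse complements, so each match is on both strands. The short word GTCT or its reverse AGAC, which is part of GTCTAGAC, was in 84% of the promoters and says little about a single gene.

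In GENCODE M21 (GRCm38), Id1 lies at chr2:152736251-152737410, Id2 at chr12:25093799-25097140, Id3 at chr4:136143497-136145755 and Id4 at chr13:48261228-48266026. Msx1 lies at chr5:37820485-37824583, Msx2 at chr13:53466884-53473074 and Atoh8 at chr6:72206177-72235577. Smad6 lies at chr9:63953076-64022059 and Smad7 at chr18:75367529-75395935. Id4 shares 1508 bases with A330033J07Rik on the opposite strand, which had 187 counts against the 104 of Id4, and without a stated strand setting reads of the pair cannot be told apart. The partners that RefSeq places over Msx1 (Msx1os), Msx2 (Gm33763) and Smad7 (Gm41776) had 65, 35 and 2 counts in all, against 9207, 389 and 276 for the genes themselves. Atoh8 shares 1107 bases with Gm52906, for which the table held no row here, so no count can be set beside the 1052 of Atoh8.

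Library totals lay between 3268948 and 9961032 counts, and 1 count was worth 0.102 to 0.304 CPM (each count divided by the scaled library total, on the usual CPM scale). On principal components over all genes, low 1 and medium 2 stood apart from their gates on the third, which held 9.3% of the variance, and results that change without them are given both ways. On the second, with 10% of the variance, high 2 stood at 33.3 against 2.66 to 11.0 for the other high libraries, and negative 4 at -0.0949 against 14.5 to 19.7 for the other negative ones. Foxa2 itself, on which the gates rest, had 2.91 ± 1.68, 11.9 ± 3.02, 52.0 ± 9.36 and 113 ± 18.2 CPM in the negative, low, medium and high gates (SD, n = 4 each), in the order of the labels. Of the defining neural progenitor genes, Sox1 and Sox2 had 0 counts in all 16 libraries, which allows up to 3 counts each from counting error, while Pax6, Nes and Hes5 were detected. RefSeq places Sox1 within Sox1ot (4037 shared bases) and Sox2 within Sox2ot (2467 shared bases, 855 counts). Reads in shared bases may not be assignable to a single gene, and whether this set the zeros was not tested. In bulk RNA, a smaller number of cells that express a gene and less RNA per cell cannot be told apart, and this holds for every difference below.

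The BMP response genes did not move together across the FOXA2 gates. Atoh8 averaged higher at each FOXA2 step, Id2 and Msx2 were lowest in the high gate, Msx1 was highest in the low and medium gates, and Id1, Id3, Smad6 and Smad7 did not pass the test over the 4 gates. In that test of any difference, with edgeR's quasi-likelihood F test and Benjamini-Hochberg adjustment over all genes, 4 of the 8 tested genes passed at 0.05, against 13.4% of all genes tested. The adjusted p was 1.88e-07 for Atoh8, 0.000241 for Id2, 0.000354 for Msx1 and 0.0164 for Msx2. It was 0.22 for Id3, 0.282 for Smad6, 0.354 for Smad7 and 0.46 for Id1 (edgeR). The call of Msx2 was lost without negative 4 or high 3, with adjusted p of 0.0637 to 0.0646, and Id3 passed without medium 2, at 0.048, without low 1 and medium 2 together, at 0.0485, and with no filter on low counts, at 0.0345.

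**Figure D1:**
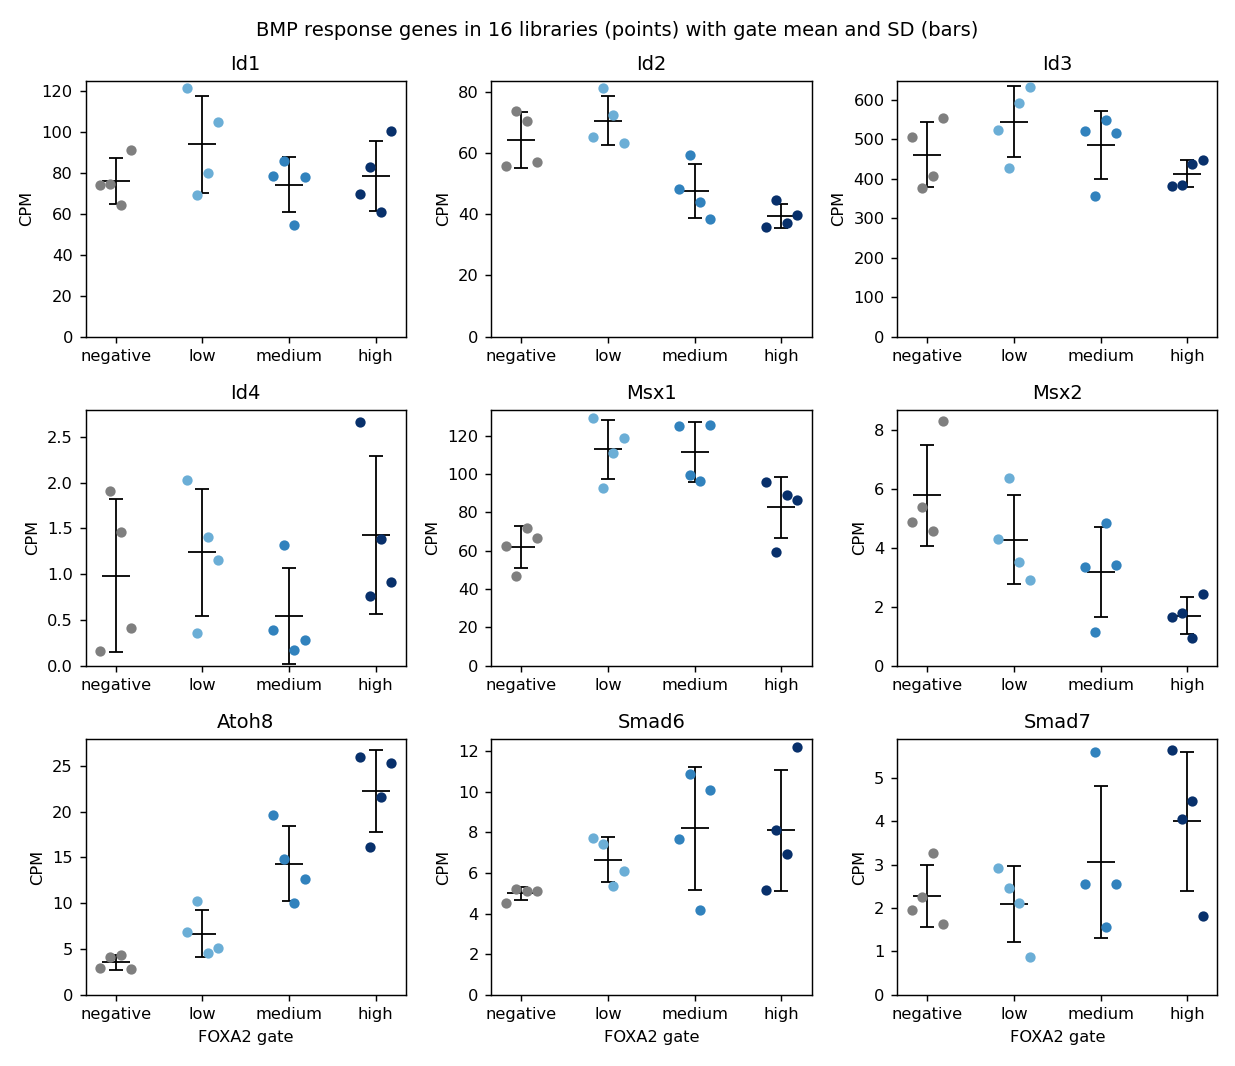
CPM (y axis, linear, from 0) of each of the 9 BMP response genes by FOXA2 gate (x axis), with 1 point per library, the gate mean as a line and the SD as a bar (n = 4 per gate). Atoh8 climbs to 22.2 CPM in the high gate against 3.55 in the negative gate, Msx2 stands lowest in the high gate at 1.70 CPM, and Msx1 is above 92 CPM in all 8 low and medium libraries.

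Taking the pairs of gates in turn, high versus negative called 1 of the 8 tested genes higher (Atoh8), against 8.29% of all genes tested, and 2 lower (Id2, Msx2), against 8.48%. Medium versus negative called 2 higher (Msx1, Atoh8), against 4.2%. Low versus negative called 1 higher (Msx1), against 1.36%. These 3 comparisons share the negative libraries. Medium versus low called 1 higher (Atoh8), against 0.482%, and 1 lower (Id2), against 0.223%. High versus low called 1 higher (Atoh8), against 3.75%, and 2 lower (Id2, Msx2), against 3.07%. In high versus medium edgeR called 0 of the 8, against 0.835% of all genes in either direction, DESeq2 also called 0, and 3 (Msx1, Msx2 and Atoh8) had an unadjusted p under 0.05. The median log2 fold change of the 8 genes in high versus negative was 0.23, beside 0.0019 over all genes tested.

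**Figure D2:**
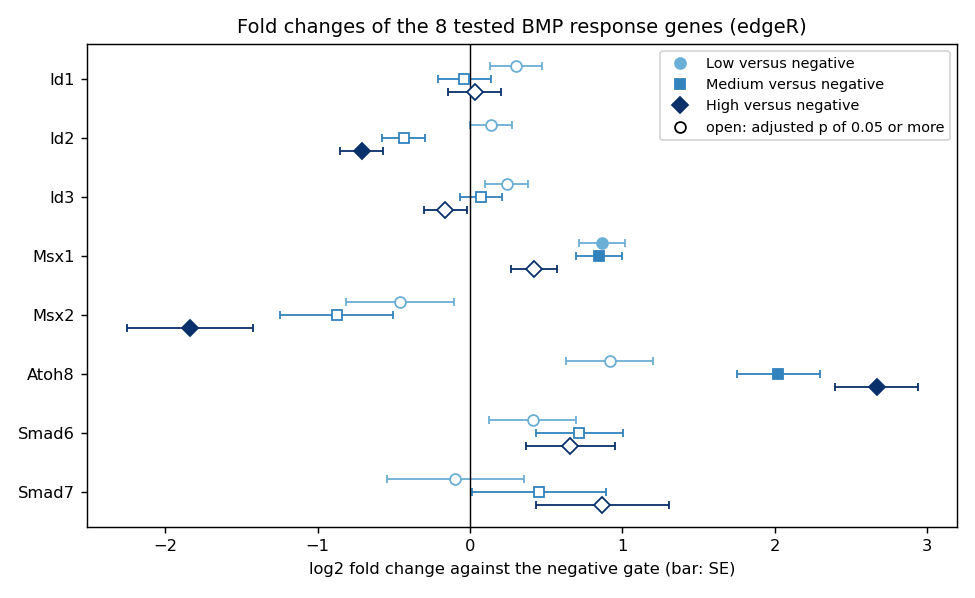
log2 fold change (x axis) of the 8 tested BMP response genes in each FOXA2 gate against the negative gate, from edgeR, with bars for the SE. Filled symbols have an adjusted p under 0.05: Atoh8 reaches 2.67 and Msx2 -1.84 in the high gate, and Msx1 stands at 0.87 in the low and 0.85 in the medium gate.

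The Id genes encode helix-loop-helix proteins without a DNA-binding region, which pair with E proteins and keep them from partnering proneural factors. Id2 had 55.7, 73.8, 70.4 and 57.2 CPM in the negative and 65.3, 81.2, 72.6 and 63.4 CPM in the low libraries (libraries 1 to 4). In the medium libraries it had 48.2, 59.2, 44.1 and 38.5 CPM, and in the high libraries 35.8, 44.8, 37.0 and 39.9 CPM. Every high library was below every negative and every low library, and every medium library was below every low one, while medium and negative overlapped through medium 2 at 59.2 CPM. Genes whose high libraries all lay below the negative ones made up 11.1% of all genes tested, and those whose medium libraries all lay below the low ones 1.99%. For high below low the share was 5.95%. Id2 averaged 39.3 ± 4.00 CPM in the high gate and 64.3 ± 9.15 CPM in the negative gate (SD, n = 4 each), a log2 change of -0.71 (SE 0.14, adjusted p = 0.000795, edgeR). Against the low gate, at 70.6 ± 8.10 CPM, the high gate was lower by a log2 change of -0.85 (SE 0.14, adjusted p = 0.000235, edgeR). Both calls stood in all 23 alternatives run. The medium gate, at 47.5 ± 8.75 CPM, was lower than the low gate by -0.57 (SE 0.14, adjusted p = 0.0493, edgeR). That call was lost without negative 3 or 4, any 1 low library, medium 1, 3 or 4, or any 1 high library, with adjusted p of 0.0513 to 0.202, and also with counts thinned to the smallest total (0.115) or only the 2 gates compared (0.152), and it held without low 1 and medium 2 together, at 0.0126. Medium versus negative, at -0.44, missed the threshold with an adjusted p of 0.0505, and passed without negative 1, negative 4 or medium 2 (adjusted p of 0.0102 to 0.0463), without low 1 and medium 2 (0.00922), with RLE scaling (0.0446) and with DESeq2 (0.0274). With the library number as a block in the fit, it passed as well (adjusted p = 0.0133, edgeR). Low and negative did not differ beyond their spread (0.14, SE 0.14).

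Id1 and Id3, the Id genes that BMP is best known to raise, showed no call in any pair of gates. Id1 averaged 76.0 ± 11.1, 93.9 ± 23.7, 74.3 ± 13.6 and 78.5 ± 17.1 CPM in the negative, low, medium and high gates (SD, n = 4 each). Its range in each gate overlapped all of the others, and high versus negative gave a log2 change of 0.03 (SE 0.17, adjusted p = 0.934, edgeR), which changed sign without negative 3 (-0.04) or high 4 (-0.11). Id3 averaged 460 ± 82.5, 544 ± 89.4, 485 ± 86.7 and 412 ± 33.9 CPM over the same gates. The order was low, medium, negative, high, but high versus low, the widest pair, had a log2 change of -0.40 with an adjusted p of 0.0887 (edgeR). It passed without low 2 or medium 2 (adjusted p of 0.0296 and 0.031), without low 1 and medium 2 together (0.0349), with only the 2 gates compared (0.0294) and without the filter (0.00983). With the library number as a block in the fit, it passed as well (adjusted p = 0.0224, edgeR). Id4, known from neural progenitors, had 1, 11, 8 and 4 counts in the negative, 16, 2, 10 and 8 in the low, 2, 8, 1 and 2 in the medium and 16, 3, 9 and 3 in the high libraries. The spread within a gate was as wide as that between gates. In the alternative edgeR runs that kept Id4, no comparison was called. The lowest adjusted p was 0.196 (edgeR), for high versus medium without medium 2 (log2 change 2.33). Without the filter, high versus negative gave 0.64 (adjusted p = 0.639, edgeR).

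Msx1 and Msx2 encode homeobox repressors of the dorsal neural tube and neural crest. Msx1 had 62.5, 46.7, 72.1 and 66.7 CPM in the negative and 129, 92.5, 111 and 119 CPM in the low libraries. It had 125, 99.4, 96.3 and 125 CPM in the medium and 95.8, 59.4, 88.9 and 86.7 CPM in the high libraries. All low and medium libraries were above all negative ones, and the high gate lay between, overlapping negative and low but not medium. Genes with such a gap made up 4.04% of all tested for low above negative, 6.13% for medium above negative and 2.44% for high below medium. The low gate averaged 113 ± 15.6 CPM and the negative gate 62.0 ± 10.9 CPM (SD, n = 4 each), a log2 change of 0.87 (SE 0.15, adjusted p = 0.000701, edgeR). The medium gate averaged 112 ± 15.9 CPM, a log2 change of 0.85 over the negative gate (SE 0.15, adjusted p = 0.000448, edgeR). Both calls stood in all 23 alternatives, and without low 1 and medium 2 together the changes were 0.80 for low and 0.91 for medium. With low and medium averaged against negative and high, Msx1 was the only 1 of the 8 genes called, against 0.9% of all genes called higher (0.65, SE 0.11, adjusted p = 0.000927, edgeR). This contrast was set with that pattern of Msx1 already known, so its p is a description.

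The high gate, at 82.7 ± 16.0 CPM of Msx1, was higher than the negative gate by 0.42 (SE 0.15) with an adjusted p of 0.0602 (edgeR), short of the threshold. It passed without negative 3, medium 2 or high 2 (adjusted p of 0.0139 to 0.049), without low 1 and medium 2 together (0.0423) and with no filter on low counts (0.0196). With the library number as a block in the fit, it passed as well (adjusted p = 0.0134, edgeR). High versus low gave -0.45 with an adjusted p of 0.0777, and passed without low 2 (0.043), without the filter (0.0142), with counts thinned to the smallest total (0.0275) and with that block (0.0121). Low and medium differed by less than their spread (medium versus low -0.02, SE 0.15).

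Msx2 moved in another direction. It had 4.86, 5.38, 4.55 and 8.29 CPM in the negative and 4.31, 6.36, 3.53 and 2.90 CPM in the low libraries. It had 3.35, 1.15, 4.84 and 3.40 CPM in the medium and 1.66, 1.77, 0.925 and 2.43 CPM in the high libraries, where the counts were 10, 7, 6 and 8. Every high library was below every negative and every low one, while medium overlapped all other gates. Genes whose high libraries all lay below the low ones made up 5.95% of all tested, and those whose high libraries all lay below the negative ones 11.1%. Msx2 averaged 1.70 ± 0.618 CPM in the high gate and 5.77 ± 1.72 CPM in the negative gate (SD, n = 4 each), a log2 change of -1.84 (SE 0.41, adjusted p = 0.0027, edgeR), and this call stood in all 23 alternatives. Against the low gate, at 4.27 ± 1.50 CPM, the high gate was lower by -1.38 (SE 0.42, adjusted p = 0.0482, edgeR). That call was lost without negative 1, 2 or 3, low 1, 2 or 3, medium 1 or 4, or high 1, 2 or 3, with adjusted p of 0.0519 to 0.164, and held without low 1 and medium 2 together, at 0.0388. With the library number as a block in the fit, it was lost as well (adjusted p = 0.0597, edgeR). The medium gate averaged 3.18 ± 1.52 CPM, and medium versus negative was not called (-0.87, SE 0.37, adjusted p = 0.167, edgeR).

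Atoh8 encodes a basic helix-loop-helix factor that is known as a direct BMP target in endothelial and liver cells. It had 2.92, 4.17, 4.37 and 2.76 CPM in the negative and 6.84, 10.2, 4.52 and 5.08 CPM in the low libraries. It had 19.7, 14.8, 10.0 and 12.6 CPM in the medium and 25.9, 16.2, 21.6 and 25.3 CPM in the high libraries. All low, medium and high libraries were above all negative ones, and all high ones above all low ones, while medium 3 was below low 2 and high 2 below medium 1. Genes whose high libraries all lay above the negative ones made up 10.5% of all tested, and those whose high libraries all lay above the low ones 6.92%. For low above negative the share was 4.04%, and for medium above negative 6.13%. Atoh8 averaged 22.2 ± 4.47 CPM in the high gate and 3.55 ± 0.830 CPM in the negative gate (SD, n = 4 each), a log2 change of 2.67 (SE 0.27, adjusted p = 7.96e-08, edgeR). The medium gate, at 14.3 ± 4.10 CPM, was higher than the negative gate by 2.02 (SE 0.27, adjusted p = 1.21e-05, edgeR). High versus low, with the low gate at 6.67 ± 2.58 CPM, gave 1.75 (SE 0.25, adjusted p = 3.59e-05, edgeR). These 3 calls stood in all 23 alternatives, and without low 1 and medium 2 together the changes were 2.67, 2.01 and 1.76.

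The steps between neighbouring gates were less firm for Atoh8. Medium versus low gave a log2 change of 1.11 for Atoh8 (SE 0.25, adjusted p = 0.0334, edgeR), which was lost without low 1, 3 or 4 or medium 1 or 2 (adjusted p of 0.072 to 0.18), without low 1 and medium 2 together (0.138), with counts thinned to the smallest total (0.157) and with only the 2 gates compared (0.0959). Low versus negative, at 0.92 (SE 0.28), had an adjusted p of 0.0766 and passed without low 3 (0.047), without the filter (0.0212), with counts thinned to the smallest total (0.0472) and with DESeq2 (0.04). High versus medium, at 0.65 (SE 0.24), was not called (adjusted p = 0.321, edgeR).

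Smad6 and Smad7 encode the inhibitory SMADs, which block receptor signalling as a feedback arm of the pathway. Smad6 averaged 4.99 ± 0.307, 6.65 ± 1.11, 8.19 ± 3.02 and 8.09 ± 2.98 CPM in the negative, low, medium and high gates (SD, n = 4 each). Its low libraries, at 5.36 to 7.73 CPM, were all above its negative ones, at 4.54 to 5.21 CPM, while the medium (4.15 to 10.9 CPM) and high ones (5.16 to 12.2 CPM) overlapped the negative gate. Genes whose low libraries all lay above the negative ones made up 4.04% of all tested, and edgeR did not call Smad6 in low versus negative. High versus negative gave a log2 change of 0.66 (SE 0.29, adjusted p = 0.134, edgeR), and medium versus negative 0.72 (SE 0.29, adjusted p = 0.136), which passed without medium 3 (0.95, adjusted p = 0.0295). Smad7 averaged 2.28 ± 0.711, 2.09 ± 0.878, 3.07 ± 1.76 and 4.00 ± 1.60 CPM, on 6 to 34 counts per library. Its gates overlapped in every pair, and high versus negative gave 0.87 (SE 0.44, adjusted p = 0.189, edgeR).

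Genes of 1 family were then set against each other within each library, so that the scaling of the library largely drops out. The log2 ratios add 0.5 CPM to each gene after scaling, which weighs most on low genes such as Msx2. The level of such a ratio also holds how well each 3′ end was captured, so only its change between gates is read. The log2 ratio of Msx1 to Msx2 was 5.27 ± 0.571 in the high gate and 3.33 ± 0.440 in the negative gate (SD, n = 4 each), a difference of 1.93. Without the added 0.5 CPM, the plain ratio of CPM was 57.6, 33.6, 96.2 and 35.6 in the high libraries, against 12.9, 8.68, 15.8 and 8.04 in the negative ones. The 2 gates did not overlap, so the exact two-sided permutation test gave p = 0.0286, the smallest that 4 against 4 libraries allow, and 0.114 after adjustment over the 8 ratios. Id1 over Id2 had the same p values, with a log2 ratio of 0.967 ± 0.257 in the high gate and 0.240 ± 0.363 in the negative gate. Its plain ratio of CPM was 1.95, 1.85, 1.65 and 2.52 in the high libraries, against 1.33, 1.01, 0.915 and 1.59 in the negative ones. Smad6 over Smad7 differed by -0.06 (exact permutation p = 0.886), and the other 5 ratios had exact permutation p of 0.0571 to 0.514. None of the 8 passed the adjustment, which a ratio at the smallest possible p can do only if most of the 8 reach it too. Not passing thus says little about Msx1 over Msx2 and Id1 over Id2. The 3 ratios over Id4 rest on counts as low as 1.

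**Figure D3:**
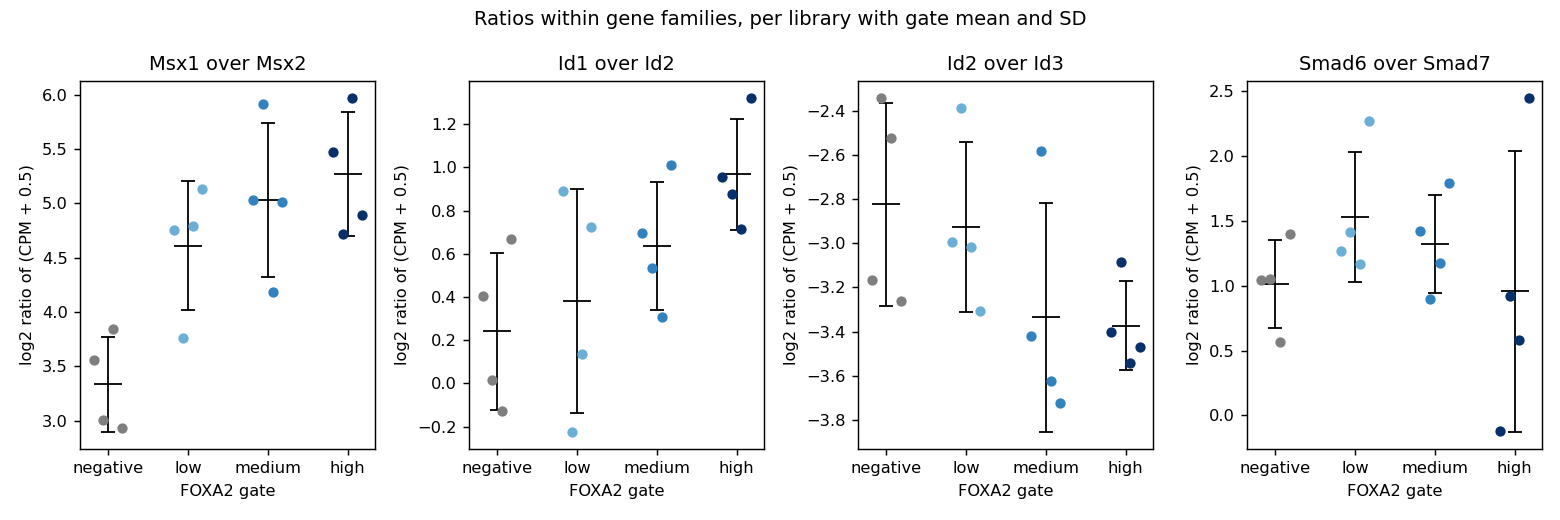
log2 ratio of (CPM + 0.5) of 2 genes of 1 family within each library (y axis, not from 0) by FOXA2 gate (x axis), for 4 of the 8 ratios, with 1 point per library and the gate mean and SD (n = 4 per gate). Msx1 over Msx2 averages 5.27 in the high gate and 3.33 in the negative gate without overlap, and Id1 over Id2 0.967 and 0.240.

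For each gene that varied over the gates, the most alike named genes of at least 10 CPM were found. Unnamed gene models, such as Gm numbers and Rik, were left out. The measure was the root mean square distance of log2(CPM + 0.5), centred per gene, over the 16 libraries. Nearest to Id2 were Map1b (0.178), Mast4 (0.201) and Tacc1 (0.202), where the own spread of Id2 on this scale was 0.375. Map1b averaged 310, 291, 209 and 161 CPM in the negative, low, medium and high gates. Nearest to Msx1 were Spsb4 (0.143), Slit1 (0.204) and Chpf (0.227), with an own spread of 0.418. Spsb4 averaged 54.1, 87.5, 87.8 and 57.1 CPM, so it shared the peak in the low and medium gates. Nearest to Atoh8 were Cldn6 (0.320), Col4a1 (0.354) and Igfbp4 (0.355), with an own spread of 1.01. Cldn6, a claudin of simple epithelia, averaged 32.3, 46.3, 99.9 and 149 CPM. Nearest to Msx2 were Kcnip2 (0.390), Tcf19 (0.415) and Setd1a (0.425), beside an own spread of 0.715. No named gene of at least 10 CPM came as near to it as to the others. Msx2 had 6 to 81 counts per library, and counting noise at such levels adds to its distances. Among the BMP response genes themselves, the nearest was Id1 for Id2 (0.424), Id3 for Msx1 (0.368), Id2 for Msx2 (0.591) and Smad6 for Atoh8 (0.833). These distances are farther than those of the outside genes, which were the nearest of a far larger pool. The difference therefore says nothing about how alike the BMP response genes are. Points also share their library and its depth.

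The rest of the pathway was counted in high versus negative, by role, and values in parentheses are log2 fold changes from edgeR with their adjusted p. Each count below stands beside 8.29% of all genes tested called higher and 8.48% called lower in this comparison, and no list was tested as a whole. Of the BMP ligands, 5 of 12 were tested, and Bmp4 and Bmp7 rose. Bmp4 averaged 33.4 ± 8.16 CPM in the high gate and 5.03 ± 0.955 CPM in the negative gate (SD, n = 4 each; 2.71, SE 0.23, adjusted p = 2.82e-09, edgeR). Bmp7 averaged 73.2 ± 10.6 CPM in the high gate and 31.9 ± 5.70 CPM in the negative gate (1.19, SE 0.14, adjusted p = 4.95e-07, edgeR). Bmp2 (0.94, adjusted p = 0.0959) and Bmp8a (0.42, adjusted p = 0.245) did not pass, and Bmp5, Bmp8b, Bmp10, Gdf2, Gdf5, Gdf6 and the roof plate ligand Gdf7 were below the filter, Gdf7 with 0 counts in all libraries. Of the receptors and co-receptors, 8 were tested (Acvrl1 was below the filter) and 2 rose, the type I receptor Bmpr1b (1.09, adjusted p = 0.00846) and the co-receptor Rgma (0.45, adjusted p = 0.0182), while Acvr2b (0.30) and Acvr2a (0.21) did not pass. That is 2 of 8 beside the 8.29% of all genes, and without negative 1, negative 2 or high 3, or with counts thinned to the smallest total, the count was 1. Of the secreted antagonists, 2 of 8 tested rose, Chrd (3.07, adjusted p = 0.000106), which binds BMPs outside the cell and also marks the notochord, and Nbl1 (1.64, adjusted p = 0.0191). Twsg1 (0.35) and Chrdl1 (-1.15) did not pass, and Nog, Chrdl2, Grem1, Cer1 and Sostdc1 were below the filter. Beside the 8.29% of all genes, the count of antagonists was 1 without negative 1, negative 3, high 1 or high 3.

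Of the SMADs that carry the signal, 1 of 5 tested rose, Smad3, which serves TGF-beta, nodal and activin receptors and not BMP receptors. It averaged 43.8 ± 7.15 CPM in the high gate and 18.4 ± 1.48 CPM in the negative gate (1.25, SE 0.18, adjusted p = 1.12e-05, edgeR). Smad1 (0.06) and Smad5 (0.10), which serve BMP receptors, did not pass, nor did the shared partner Smad4 (0.13) or Smad2 (0.16), and Smad9 was below the filter. Of the 8 inhibitors inside the cell or at its membrane, 1 rose, beside 8.29% of all genes, the pseudoreceptor Bambi, at 12.3 ± 2.67 CPM in the high gate and 7.31 ± 1.71 CPM in the negative gate (0.74, SE 0.22, adjusted p = 0.0192, edgeR). That call was lost, leaving 0, without negative 1, negative 2, high 3 or high 4. Smurf2 (-0.31, adjusted p = 0.0749), Tob2 (0.41) and Smurf1 (0.28) did not pass. Of 3 E proteins, the partners that Id proteins bind, Tcf4 (0.50, adjusted p = 0.00428) and Tcf3 (0.54, adjusted p = 0.0049) rose and Tcf12 (-0.01) did not pass.

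A second list of genes known to answer to BMP in other tissues, which again holds Bambi, had 9 of 10 tested, of which 4 rose and 1 fell, beside 8.29% and 8.48% of all genes. Hey1 averaged 21.1 ± 2.54 CPM in the high gate and 9.34 ± 1.43 CPM in the negative gate (adjusted p = 2.92e-05, edgeR). Gata3 (1.46, adjusted p = 0.000929) and Dlx5 (2.62, adjusted p = 0.0148, on 1 to 4 counts in each negative library) rose as well. The gene that fell was Msx3, the third Msx gene, which is known from the dorsal neural tube. It averaged 2.35 ± 1.20 CPM in the high gate and 14.6 ± 5.17 CPM in the negative gate (-2.66, SE 0.32, adjusted p = 9.8e-07, edgeR), and fell also in high versus medium (-1.77, adjusted p = 0.00523). Msx3 thus stood lowest in the high gate, as Msx2 did and Msx1 did not. Hamp was below the filter, and the count of genes that fell was 2 without low 2, with DESeq2 and with only the 2 gates compared.

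**Figure D4:**
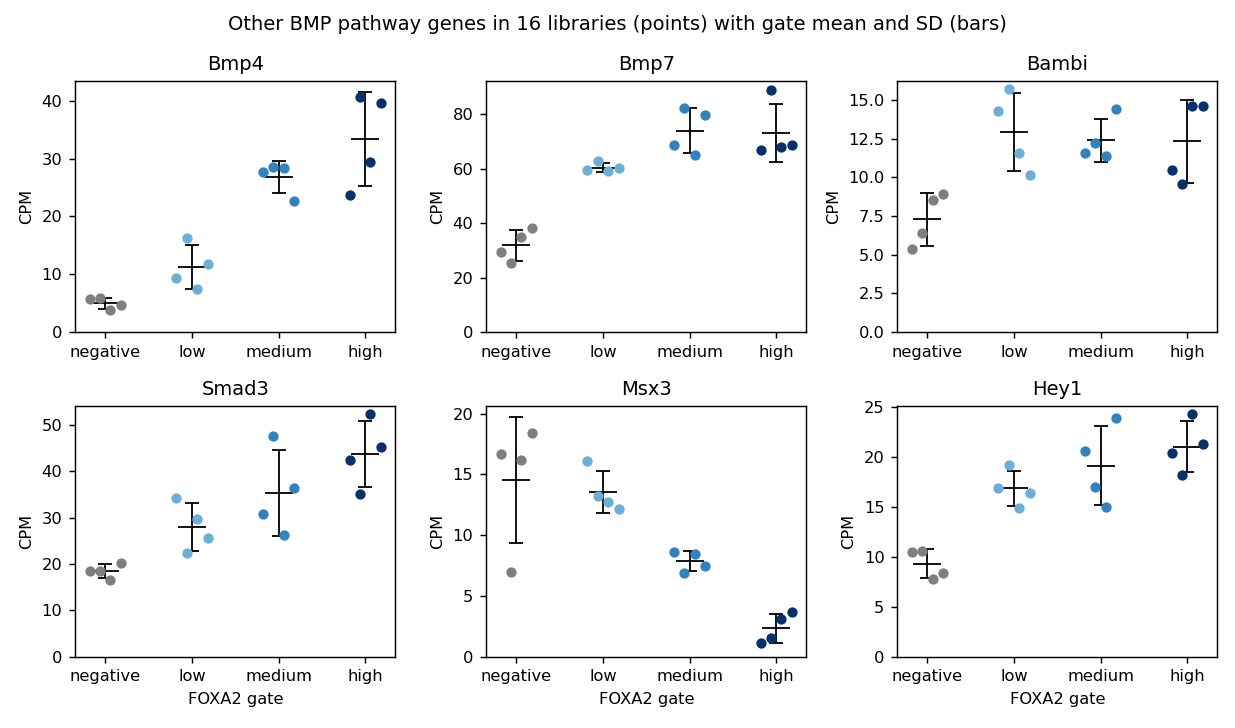
CPM (y axis, linear, from 0) of 6 other BMP pathway genes by FOXA2 gate (x axis), with 1 point per library, the gate mean and the SD (n = 4 per gate). Bmp4 climbs to 33.4 CPM in the high gate against 5.03 in the negative gate, Msx3 stands at 2.35 CPM in the high gate against 14.6 in the negative gate, and Bambi is at 12.3 to 12.9 CPM in the low, medium and high gates against 7.31 in the negative gate.

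Markers of other cells moved with the same gates, and their part in these results was not tested. Roof plate and dorsal genes, summed over 12, had 34.7 to 44.0 CPM in the high gate and 87.7 to 115 CPM in the negative gate, beside 95.0 to 137 in low and 62.6 to 75.7 in medium. Of 10 tested, 7 were called lower and 1 higher in high versus negative, Gdf7 being at 0, so this list was lower in the gate where Id2 and Msx2 were. Pluripotency genes, 12 in the list, summed to 64.8 to 91.8 CPM in the high gate and 576 to 960 CPM in the negative gate, with 9 of 10 tested lower, and Pou5f1 and Fgf4 at 0 in the high gate. The low gate had 101 to 184 CPM of them and the medium gate 70.9 to 94.2. Beside Atoh8, endoderm genes summed to 532 to 560 CPM in the high gate and 146 to 181 CPM in the negative gate, with 6 of 7 tested higher and Hnf4a at 0 in the high gate, beside 216 to 237 in low and 328 to 466 in medium. Epcam (162 CPM in high, 83.4 in negative), Cldn6 (149, 32.3) and Sox17 (134, 11.7) made up most of the high sum. Gata4 went the other way without a call (-0.90, adjusted p = 0.105, edgeR). Gata6, Hnf4a, Afp and Apoa1 were below the filter. Cldn6, named above as alike to Atoh8, is in that list. Notochord genes summed to 322 to 388 CPM in the high gate and 114 to 137 CPM in the negative gate, with 5 of 6 tested higher and Noto at 0 in all gates, beside 149 to 233 in low and 250 to 312 in medium. Krt18 made up most of the notochord sum, at 270 CPM in the high gate and 112 CPM in the negative gate, and Shh was below the filter. Surface ectoderm genes summed to 180 to 228 CPM in the high gate and 100 to 118 CPM in the negative gate, with 4 of 5 tested higher and Krt14 at 0 in both, beside 96.5 to 158 in low and 137 to 192 in medium. Krt8 (99.8 CPM in high, 69.9 in negative) and Cdh1 (74.9, 31.0) made up most of the surface ectoderm sum. Grhl3 went the other way without a call (-1.67, adjusted p = 0.0551, edgeR), and Krt5, Krt14 and Trp63 were below the filter. Floor plate genes, which include Foxa2, had 221 to 248 CPM in the high gate and 49.0 to 56.8 CPM in the negative gate. They had 69.6 to 94.3 CPM in low and 120 to 159 in medium, and 6 of 7 tested were higher in high versus negative. Foxa2, on which the gates rest, is 1 of the 6, so its rise was set by the sorting. It averaged 113 CPM in the high gate and 2.91 CPM in the negative gate, a large part of the high sum. Cdh1 stands in both the endoderm and the surface ectoderm list, Lmx1b in both the roof plate and the floor plate list, and Chrd in the notochord list and among the antagonists.

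Beside Msx1, the summed level of mesoderm genes was highest in the same middle gates, at 49.0 to 57.1 CPM in low and 44.2 to 57.4 CPM in medium, against 23.3 to 35.5 CPM in high and 19.6 to 27.2 CPM in negative. Of its 10 genes 3 were tested, and Meox1, a gene of somitic mesoderm, was called higher in low versus negative (1.45, adjusted p = 7.32e-07, edgeR), with Msgn1 at 0 in all gates. Meox1 made up most of that sum, with 15.5, 42.2, 42.8 and 23.4 CPM on average in the negative, low, medium and high gates. The other 9 genes together had 3.99 to 10.7 CPM in negative, 9.18 to 10.6 in low, 4.33 to 8.41 in medium and 4.57 to 6.17 in high. Without Meox1 the medium gate thus did not stand above the others. The low gate still lay above medium and high without overlap. It overlapped negative, with medians of 9.52 CPM in low and 5.57 CPM in negative. Neural crest genes, where Msx1 and Msx2 are also expressed, summed to 67.1 to 78.9 CPM in the high gate and 32.4 to 48.8 CPM in the negative gate, beside 46.7 to 73.6 in low and 50.8 to 73.4 in medium. Of 6 tested in that list, 1 was higher (Sox9) and 1 lower (Tfap2b), and Foxd3 was at 0 in the medium gate. Sox9 averaged 60.4 CPM in the high gate and 14.3 CPM in the negative gate, and Tfap2b 1.45 CPM in the high gate and 12.0 CPM in the negative gate. Without Sox9 the other 7 genes summed to 7.65 to 16.9 CPM in the high gate and 15.6 to 36.6 CPM in the negative gate, with medians of 13.0 CPM in high and 20.3 CPM in negative and ranges that overlapped. Neural progenitor genes summed to 207 to 291 CPM in the high gate and 264 to 305 CPM in the negative gate, beside 297 to 339 in low and 249 to 263 in medium, with 2 of 7 tested higher and 4 lower (Pax6, Nes, Hes5 and Sox3) in high versus negative. The sum thus held opposite moves: Nkx2-9 averaged 168 CPM in the high gate and 17.6 CPM in the negative gate, while Pax6 averaged 23.7 CPM in the high gate and 95.4 CPM in the negative gate. Hes5 averaged 19.0 CPM in the high gate and 92.9 CPM in the negative gate, and Nes 24.2 CPM in the high gate and 67.2 CPM in the negative gate.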

How the data were processed

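The deposited table gives raw counts of reads per gene, without normalization (35976 genes, 16 libraries). Per the submitters' processing notes, the build was GRCm38 and the tools were STARsolo 2.7.9a, cutadapt 1.18 and DESeq2 1.42.0. Not given in the sources used here are the annotation, the strand setting and whether molecular identifiers were used. Column names identified the samples.

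Counts were tested with edgeR 4.0.16 in R 4.3.3: expression filter (13891 genes kept, 99.665% or more of each library's counts), TMM scaling (factors 0.97 to 1.05), a quasi-likelihood fit of 4 gates to all 16 libraries, and Benjamini-Hochberg adjustment per comparison at 0.05. Every adjusted p of a gene comes from this fit, unless an alternative is named beside it. The SE is the log2 fold change over the square root of its F. The script was tested on simulated data. Ratios used log2(CPM + 0.5), an exact two-sided permutation test and Benjamini-Hochberg adjustment over 8 ratios. CPM is mean ± SD. Pairs of libraries within a gate differed by more than sampling noise (lowest chi-square per degree of freedom 4.31).

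The BMP response genes, the pathway and marker lists and the tests were chosen with earlier results of these data known. All 9 genes are named whatever their result, with up to 4 genes of each pathway list by smallest adjusted p in high versus negative. Some genes of the lists are not reported here. Meox1, Sox9, Tfap2b, Nkx2-9, Pax6, Hes5, Nes and Sox3 were named, and sums without Meox1 or Sox9 made, after their values were seen. The same holds for Epcam, Sox17, Gata4, Krt18, Krt8, Cdh1 and Grhl3. Sequences are from RefSeq and coordinates from GENCODE M21, where 26763 symbols matched. Alternatives were RLE scaling, no filter, a replicate block, thinning to the smallest total, DESeq2, only the 2 gates compared, a pseudocount of 1, each library left out and, chosen after seeing the data, low 1 and medium 2 left out.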

Additional observations from a re-analysis of the deposited data

Results flagged for a closer look

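Of 36 groups of 4 libraries, 9 genes in 4 gates, 1 held a library that stood apart from the other 3 by Dixon's criterion, and chance flags about 1 in 20 groups. It was Smad6 in the negative gate, where negative 1 had 4.54 CPM and the other 3 libraries 5.10 to 5.21 CPM. The gap took 0.832 of the range, just above the critical value for 4 samples. No comparison of Smad6 with the negative gate was called without negative 1.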

How the results depend on the processing

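In high versus negative, 2 genes were called higher with no filter, with the replicate block and without low 1 and medium 2 (an alternative chosen after seeing the data), and 1 to 2 with 1 library left out. In medium versus negative, 1 was called lower with RLE, DESeq2, the replicate block and without low 1 and medium 2 (0 to 1 with 1 left out). In low versus negative, 2 were called higher with no filter, thinning and DESeq2 (1 to 2). In medium versus low, 0 were called higher with thinning, only 2 gates or without low 1 and medium 2 (0 to 1), and 0 lower with thinning or only 2 gates (0 to 1). In high versus low, 4 were called lower with no filter (1 to 3).

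Over all genes, medium versus low called 98, but 199 with no filter, 161 with DESeq2, 46 with only 2 gates and 54 to 107 with 1 library left out, the lowest without low 3 or medium 1. High versus medium called 116, but 248 with no filter, 183 with DESeq2, 287 without low 1 and medium 2 and 65 to 216 with 1 left out, lowest without high 1 and highest without medium 2. The middle gates against the ends called 248, and 477 with no filter.

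Signs that turned were of values not called, and the cause was not tested. With 1 library left out, Id1 gave -0.11 to 0.14 in high versus negative, -0.11 to 0.093 in medium versus negative and -0.071 to 0.17 in high versus medium. Id3 gave -0.013 to 0.21 in medium versus negative. Smad7 gave -0.0024 to 0.68 in medium versus negative and -0.31 to 0.17 in low versus negative. Msx1 gave -0.10 to 0.050 in medium versus low, Smad6 -0.31 to 0.11 in high versus medium, and the ratio of Smad6 to Smad7 -0.55 to 0.30. Without low 1 and medium 2, Smad7 was -0.0022 in medium versus negative, Msx1 0.10 in medium versus low and Smad6 0.091 in high versus medium. Thinned, Smad7 was 0.51 in low versus negative and 0.19 for the middle gates.

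Library numbers did not meet the criterion for pairing (every pair over 0.1). Over 24 same-numbered pairs the correlation of deviations was -0.0871 to 0.226 (6 over 0.1, median 0.0304 against -0.0125 for other numbers). The criterion is strict, and missing it does not show that same-numbered libraries are unpaired. As a hint from the data, not the design, 8 of 16 libraries were nearest to their own number. With the replicate block, Msx1 passed in high versus negative (adjusted p = 0.0134, edgeR) Id2 in medium versus negative (0.0133), and Id3 (0.0224) and Msx1 (0.0121) in high versus low, while Msx2 in high versus low did not (0.0597). For the ratio of Msx1 to Msx2, pairing cannot change the difference of 1.93, since a mean of paired differences equals the difference of means. Exact sign flips of 4 pairs allow no p under 0.125. The limit of a count of 0, 3 counts, is worth 0.306 to 0.913 CPM.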

Other observations

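Fst, which encodes follistatin, an extracellular binder of activins and some BMPs, had its lowest means in the middle FOXA2 gates, where Msx1 was highest. It was picked out after its values were seen. Fst averaged 17.9 ± 9.35, 7.88 ± 2.86, 5.19 ± 1.68 and 12.5 ± 2.68 CPM in the negative, low, medium and high gates (SD, n = 4 each). It was lower in medium versus negative (log2 fold change -1.77, SE 0.32, adjusted p = 0.000513, edgeR) and in low and medium against negative and high (-1.23, SE 0.22, adjusted p = 0.00244, edgeR). Low versus negative was also called lower, but not without negative 2, low 1, low 3 or low 4. That call was also lost without low 1 and medium 2 together and with only the 2 gates compared. Fst was not called in high versus negative (-0.50, adjusted p = 0.282, edgeR), nor in high versus medium or high versus low. It had 5.07 to 11.8 CPM in the low, 2.94 to 6.76 in the medium and 9.44 to 14.9 in the high libraries, so low and high overlapped.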
